A study of Mus musculus with 2 samples.

Results

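The STAT genes, which encode the signal transducers and activators of transcription, were followed in thioglycollate-elicited peritoneal macrophages by RNA sequencing. The genes were chosen by name as Stat2, Stat3, Stat4, Stat5a, Stat5b and Stat6, and were found by matching NCBI gene numbers to symbols. They are 6 of the 15623 genes listed in 1 or both of the deposited tables, and all 6 were listed in both. The cells came from wild type C57BL/6 mice of 6 to 8 weeks and were purified by adherence and kept in low-serum medium. 1 culture received no cytokine (nontreated, NT), and 1 was given mouse interleukin-4 (IL-4) for 6 h, a Th2 cytokine that drives alternative (M2) macrophage activation. Each of the 2 groups held 1 library, so no difference below was checked against a spread between animals or cultures. Whether RNA was pooled over animals was not given in the sources used here, and 1 label field gives bone marrow as tissue although the cell type is stated as peritoneal macrophages.

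STAT proteins wait in the cytoplasm until a cytokine binds its receptor. Janus kinases (JAKs) attached to the receptor chains then phosphorylate a tyrosine of the STAT, and STAT dimers enter the nucleus and bind DNA at palindromes that begin with TTC and end with GAA. In macrophages, Stat6 serves the receptors of IL-4 and IL-13, Stat3 those of IL-10 and of the IL-6 family, and the Stat5 proteins that of the growth factor GM-CSF. Stat2 works mainly with the DNA-binding partner Irf9 after type I interferon, and Stat4 carries IL-12 signals, best known in T cells and natural killer (NK) cells. Only RNA abundance was measured here. Phosphorylation and acetylation of the proteins were not.

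The NT library held 11035641 expected counts and the IL-4 library 11250099. An expected count is the number of reads that the RSEM software assigned to a gene, and it need not be whole. All 8 macrophage markers examined were listed in both libraries, with a summed abundance of 17095 CPM (counts scaled to the library total) in NT and 17408 in IL-4. Lyz2, a lysozyme of myeloid cells, and Cd68, a macrophage glycoprotein, took most of it. Itgam, Adgre1, Mertk and Fcgr1 were not called changed by the rule given below, while the growth factor receptor Csf1r was called higher and the endotoxin co-receptor Cd14 lower in IL-4. Other cell types were represented by summed abundances between 0.535 and 27.9 CPM per marker list. Intervals below are 95% intervals that cover counting error only. They treat every read as a molecule of its own, which amplified libraries without molecular identifiers do not ensure.

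Stat6 and Stat3 were the most abundant of the 6 transcripts in both libraries. Levels are compared between genes in FPKM, a unit scaled for transcript length and depth. Stat6 had 69.7 FPKM in NT and 56.0 in IL-4, which placed it at rank 961 of the 14842 genes listed in NT and at rank 1331 of the 14717 listed in IL-4. Stat3 had 33.1 and 23.5 FPKM. In NT these were followed by Stat5b with 12.7 FPKM, Stat5a with 9.64 and Stat2 with 9.25. The counting intervals of Stat5a (8.73 to 10.6 FPKM) and Stat2 (8.42 to 10.1) overlapped, so their order was not resolved in NT. In IL-4, Stat2 had 12.9 FPKM and lay ahead of Stat5b with 11.1 and Stat5a with 8.50. The intervals of Stat2 (11.9 to 13.9 FPKM) and Stat5b (10.2 to 12.0) still overlapped slightly. Stat4 was far below the others in both libraries, with 0.98 FPKM in NT and 0.66 in IL-4.

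**Figure D1:**
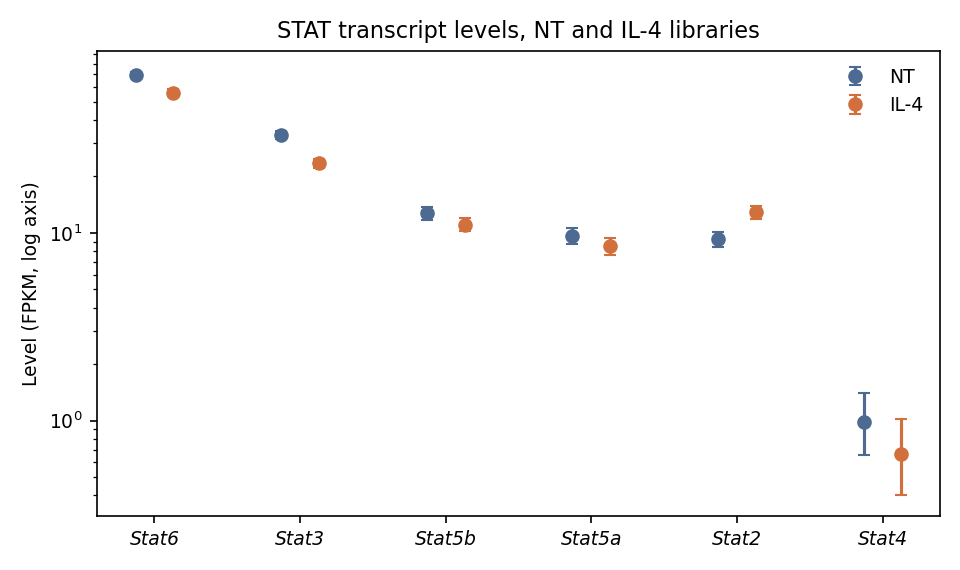
Level of each STAT gene in FPKM (log axis) in the NT and the IL-4 library, with exact Poisson 95% intervals of the count carried over to FPKM and 1 library per group. Stat6 and Stat3 lead in both libraries, Stat2 is at 9.25 and 12.9 FPKM, and Stat4 lies below 1 FPKM.

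None of the 6 STAT genes was called changed upon IL-4 stimulation, while 10.4% of the 15593 genes tested were (4.07% higher and 6.28% lower). The call, with the thresholds of the study, required a log2 ratio (IL-4 over NT) of 0.75 or more in size, an exact two-sided binomial p-value up to 0.05, and a value up to 0.5 after Benjamini-Hochberg (BH) adjustment. The test compares the reads of the 2 libraries and not the conditions. Within that limit the ratios differed in sign, since Stat2 was higher in the IL-4 library and the other 5 had ratios below 0. The intervals of Stat4 and Stat5a held 0. The median log2 ratio was -0.25 over the 6 genes and -0.03 over all genes tested. At an exact p-value of at most 0.05 with no limit on size, 1 STAT gene was higher and 3 were lower, compared with 17.9% and 20.4% of all genes (38.3% in all). The same 4 genes had a BH-adjusted value of at most 0.05, as did 32.2% of all genes. With no limit on size such values depend on read number. The STAT genes other than Stat4 had 786 to 5371 reads over both libraries, while 8461 of all genes tested had at least 200. These shares were not matched for depth, so they show no excess among the STAT genes. If replicates were assumed to vary with a coefficient of 0.1, the edgeR exact test left Stat2 (p = 0.0329) and Stat3 (p = 0.0201) under 0.05, and with 0.2 it left 0 of the 6 genes.

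**Figure D2:**
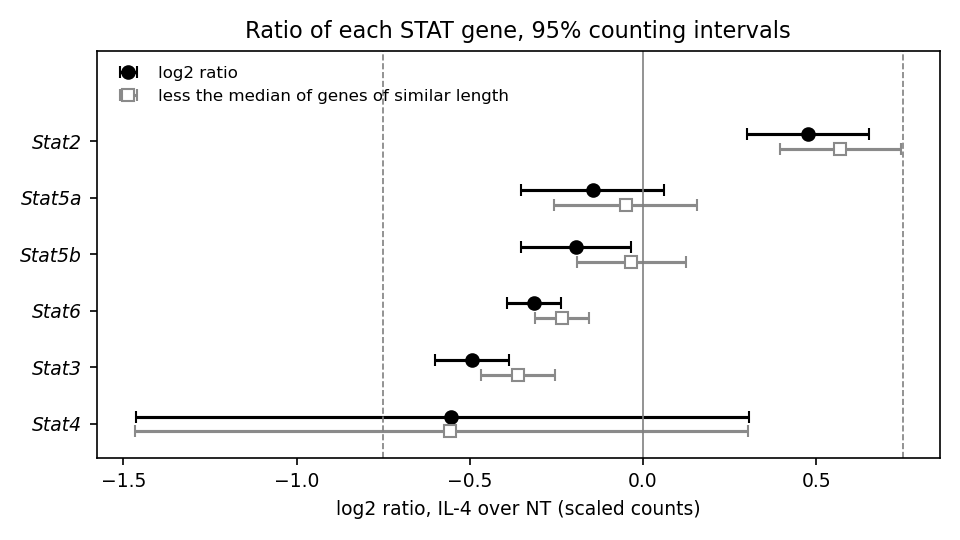
Log2 ratio of IL-4 over NT for each STAT gene with its exact 95% counting interval (filled circles), and the same after subtracting the median of the 200 genes closest in transcript length (open squares). Dashed lines mark the threshold of 0.75 in either direction. Stat2 lies above 0, Stat3 and Stat6 below 0, and the interval of Stat4 spans 0.

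Stat6, the STAT that IL-4 activates and whose acetylation the study addressed, was moderately lower after 6 h. The gene (gene 20852, chr10:127642955-127660987, GRCm38) had 2951 counts in NT and 2420 in IL-4. These were the highest counts of the 6 genes, and its library values in CPM were 267 and 215. Its log2 ratio was -0.31 (interval -0.39 to -0.24), or 0.804 of the NT value (exact binomial test, BH-adjusted p = 2.68e-14). The whole interval lay inside the threshold of 0.75. Among all tested genes 31.8% had a lower ratio. Among the 200 genes of nearest length, each with at least 200 reads, 23% did. Its length was 3805 bases in both tables, since a single transcript is listed for it, so a change in transcript mix could not enter its FPKM.

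Stat3, which carries the anti-inflammatory signal of IL-10, was lower by more than Stat6. The gene (gene 20848, chr11:100886806-100939594) had 1668 counts in NT and 1208 in IL-4. Its log2 ratio was -0.49 (interval -0.60 to -0.39), or 0.71 of the NT value (exact binomial test, BH-adjusted p = 1.65e-18). The ratio of Stat3 minus that of Stat6 was -0.18 on the log2 scale, with an interval from -0.31 to -0.05. This difference was not corrected for transcript length. Less the medians of genes of similar length, given below, the ratios were -0.36 for Stat3 and -0.23 for Stat6. No interval was computed for the difference between those 2 values. The 3 transcripts listed for Stat3 gave nearly the same weighted length in both tables, 4515.72 and 4519.37 bases.

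Stat2, the partner of Irf9 in the interferon response, had the only ratio above 0 among the 6 genes. It (gene 20847, chr10:128270498-128292853) had 454 counts in NT and 644 in IL-4, or 9.25 and 12.9 FPKM. Its log2 ratio was 0.48 (interval 0.30 to 0.65), 1.39 times the NT value (exact binomial test, BH-adjusted p = 5.12e-07). Only 15.9% of all tested genes had a higher ratio. Among the 200 genes nearest to it in length, each with at least 200 reads, 4.5% did. These shares thus differ in read depth as well as in length. In each of the 5 comparisons with another STAT gene the interval of the difference excluded 0. The differences ran from 0.62 (Stat2 less Stat5a, interval 0.35 to 0.89) to 1.04 (Stat2 less Stat4, interval 0.15 to 1.96) on the log2 scale.

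The promoter window of Stat2 is shown because it was the only STAT window with a match to a Stat6-type palindrome. The RefSeq windows for GRCm38 run from 250 bases before to 50 bases after a transcript start, and 9 windows covered the 6 genes. Capitals mark matches to TTTCNNTTTC, the core of the interferon-stimulated response element, and to TTCNNNNGAA, the spacing that Stat6 prefers. Both strands were searched, and TTCNNNNGAA reads the same on either.
Stat2, chr10:128270248-128270547, plus strand: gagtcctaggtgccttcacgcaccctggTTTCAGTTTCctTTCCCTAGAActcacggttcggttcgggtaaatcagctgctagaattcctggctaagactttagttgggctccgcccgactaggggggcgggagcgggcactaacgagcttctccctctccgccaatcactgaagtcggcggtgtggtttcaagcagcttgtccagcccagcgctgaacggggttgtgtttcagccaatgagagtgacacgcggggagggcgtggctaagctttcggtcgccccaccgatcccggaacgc
Stat6, chr10:127642736-127643035, plus strand: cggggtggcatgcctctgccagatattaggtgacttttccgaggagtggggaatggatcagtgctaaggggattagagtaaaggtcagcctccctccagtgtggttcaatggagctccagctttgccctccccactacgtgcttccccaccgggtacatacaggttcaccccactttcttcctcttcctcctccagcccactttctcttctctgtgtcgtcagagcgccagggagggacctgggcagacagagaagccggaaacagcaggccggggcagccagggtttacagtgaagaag
In Stat2 the TTTCAGTTTC match began 222 bases and the TTCCCTAGAA match 210 bases before the transcript start, without overlap. TTCNNNNGAA was found in 6.95% of all 32851 promoter windows and TTTCNNTTTC in 3.44%. Stat6 had no match to either, nor to TTCNNNGAA, the spacing used by most other STATs, which occurs in 8.30% of all windows and in 0 of the 9 STAT windows. The remaining match was GAAAGTGAAA in 1 of the Stat4 windows (chr1:52007990-52008289), 97 bases before that start. A match is a stretch of letters, and binding was not measured in these files.

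Stat5a and Stat5b, close relatives that act downstream of GM-CSF, growth hormone and prolactin, differed little between the libraries. Stat5a (gene 20850, chr11:100859351-100885169) had 409.20 counts in NT and 377.30 in IL-4 (log2 ratio -0.14, interval -0.35 to 0.06). Stat5b (gene 20851, chr11:100780731-100859004) had 700.80 and 624.70 counts (log2 ratio -0.19, interval -0.35 to -0.04, exact binomial p = 0.0159). With TMM scaling the p-value of Stat5b was 0.0517. The difference between their ratios was 0.05 (Stat5a less Stat5b), and its interval from -0.21 to 0.31 allowed either gene to have moved more.

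These counts were not whole, but their sums were, with 1110 counts in NT and 1002 in IL-4, so RSEM had divided a fixed set of reads between Stat5a and Stat5b. Taken as 1 gene they had a log2 ratio of -0.18 (interval -0.30 to -0.05), and Stat5a held 36.9% of the summed counts in NT and 37.7% in IL-4. Their coding sequences were 90.7% identical over 2343 aligned bases, and 13 identical runs were at least 31 bases long, the longest of 324 bases. By contrast, no 31-base word was shared between any other pair of the 6 genes, whose coding identity ran from 53.9% to 61.5%. A shared run of 129 bases and the last 90 coding bases of each gene are shown to mark where reads could and could not be told apart.
Stat5a (exons within chr11:100865396-100874021, plus strand) and Stat5b (exons within chr11:100798703-100801516, minus strand), coding bases 441 to 569 of both: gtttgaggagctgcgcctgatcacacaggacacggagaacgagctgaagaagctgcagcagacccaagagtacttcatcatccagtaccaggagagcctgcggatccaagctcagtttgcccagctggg
Stat5a, last 90 coding bases, chr11:100883904-100883993, plus strand: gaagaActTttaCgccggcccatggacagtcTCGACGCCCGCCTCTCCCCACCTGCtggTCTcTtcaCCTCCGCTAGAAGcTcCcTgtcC
Stat5b, last 90 coding bases, chr11:100783099-100783188, minus strand: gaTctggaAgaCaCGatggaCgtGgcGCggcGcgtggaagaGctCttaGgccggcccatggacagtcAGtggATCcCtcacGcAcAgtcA
In the shared run no base differs. In the last 90 bases, capitals mark the bases with no identical partner in the alignment of the whole coding sequences, 49 in Stat5a and 23 in Stat5b.

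The transcript mix that RSEM estimated for Stat5a also differed between the tables, with no measure of its uncertainty. The length column is weighted over the transcripts of a gene, and it was 3813.35 bases for Stat5a in NT and 3910.00 in IL-4, an increase of 2.53%. Its 2 listed transcripts correspond to GENCODE models of 3605 and 3888 bases, and in both tables the weighted length lay nearer to the longer model. Among all genes listed in both tables, 8.32% had lengths that differed by over 1%. Through this length the log2 ratio of Stat5a was -0.18 in FPKM and -0.14 in counts. The lengths of the other 5 STAT genes differed by at most 0.411%, the value of Stat5b.

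Stat4, which relays IL-12, was near the limit of what these libraries could resolve. It (gene 20849, chr1:51987106-52107189) had 29 counts in NT and 20 in IL-4. The log2 ratio was -0.55, but the interval ran from -1.46 to 0.31 (exact binomial test, p = 0.226), so neither a fall past the threshold nor a small rise was outside it. Its level was 71.1 times below that of Stat6 in NT and 84.9 times below in IL-4, in FPKM. Its length was 2672 bases in both tables, near the shorter of its GENCODE models (2662 and 2982 bases).

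Genes of lymphoid cells were low in both libraries. The 8 T cell markers summed to 27.9 CPM in NT and 10.7 in IL-4, most of it from the costimulatory receptor Cd28, which fell from 252 to 73 counts. The other 7 T cell markers had 55.74 counts in NT and 47.16 in IL-4, and they went in both directions. Cd3e, Cd3g and Cd4 had fewer counts in IL-4 (4 and 1, 3 and 1, 15 and 7), Cd8a had 20 and 18, and Cd3d, Lck and Cd5 had more (1.74 and 4.16, 12 and 15, 0 and 1). None of these 7 was called. Of 6 NK cell markers 5 were listed in NT and 2 in IL-4, with 12.06 and 6.02 counts in all. Of these 5, 4 had at most 3 counts in both libraries, so the numbers listed resolve no change. The part of lymphoid cells in the Stat4 value was not tested. In bulk RNA fewer cells of a type and less RNA per cell cannot be told apart. Of 7 genes that Stat4 is known to induce in lymphocytes, 4 (Ifng, Tbx21, Prf1 and Gzmb) were listed in neither library. Il18r1, an IL-18 receptor chain, had 16.33 and 7.95 counts. Furin, a protease made by many cell types, had 1863 and 2535 counts (log2 ratio 0.42).

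Summed over the 6 genes, the STAT transcripts had 6212 counts in NT and 5294 in IL-4 (log2 ratio -0.26, interval -0.31 to -0.21). Without Stat6 the other 5 genes together had a ratio of -0.21 (interval -0.28 to -0.14). In summed FPKM the total was 135.4 in NT and 112.6 in IL-4. Stat6 held 51.5% of that sum in NT and 49.7% in IL-4. The share of Stat3 was 24.5% and 20.9%, and that of Stat2 was 6.83% and 11.4%. Differences between 2 STAT genes do not depend on the scaling of the libraries, but they were not corrected for transcript length. Among the 15 such differences the interval excluded 0 in 8. These were the 5 that involve Stat2 and the 3 between Stat3 and Stat5a (-0.35), Stat5b (-0.30) and Stat6 (-0.18). For Stat6 against Stat5a the difference was 0.17 (Stat5a less Stat6, interval -0.05 to 0.39), so these ratios were not resolved from each other. Every difference of Stat4 from a gene other than Stat2 had an interval that held 0.

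Transcript length moved with the ratio across all genes. Long transcripts had lower ratios in the IL-4 library, and the 200 genes nearest in length to a STAT gene had median log2 ratios from -0.16 (Stat5b) to 0.00 (Stat4). Less these medians, the ratio was 0.57 for Stat2 (interval 0.39 to 0.75), -0.36 for Stat3 (interval -0.47 to -0.25) and -0.23 for Stat6 (interval -0.31 to -0.15). Stat5a and Stat5b came to -0.05 and -0.03, with intervals that held 0. The median of the 6 genes was then -0.14. With 1 library per group, a length effect of library preparation and a response of long transcripts cannot be told apart.

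**Figure D3:**
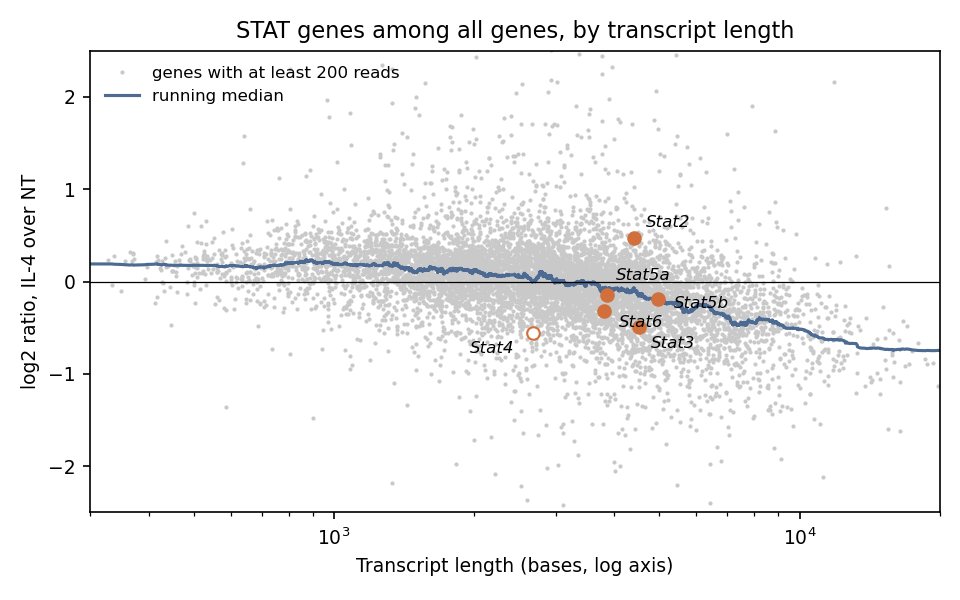
Log2 ratio of IL-4 over NT against transcript length (log axis, mean of both tables) for 8461 genes with at least 200 reads (grey), with their running median over length (line) and the STAT genes in orange. Stat4 is drawn open because it had 49 reads in all. Stat2 (0.48) lies above the median line, Stat3 (-0.49) and Stat6 (-0.31) below it, and Stat5a and Stat5b close to it.

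By position, the STAT genes lie in 2 clusters and a lone gene, Stat4 on chromosome 1. Stat5b, Stat5a and Stat3 follow each other within 158.9 kb on chromosome 11, with gaps of 346 and 1636 bases between the annotated genes and no other listed gene between them. All 3 had ratios below 0, and that of Stat3 was lower than those of Stat5a and Stat5b by the differences given above. Stat6 and Stat2 lie 609.5 kb apart on chromosome 10 and had ratios of opposite sign. The 18 listed genes between them had a median log2 ratio of -0.01. Of these, 0 were called higher and 2 lower (4.07% and 6.28% of all genes).

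Upstream of the STATs, the kinase Jak2 changed most among the IL-4 receptor chains and JAKs. In this list of 7 genes 1 was called higher and 0 lower (4.07% and 6.28% of all genes). The median log2 ratio of the list was -0.07. Jak2, which serves the receptors of interferon-gamma, GM-CSF and the type II IL-4 receptor, rose from 568 to 1509 counts (log2 ratio 1.38, interval 1.24 to 1.52). Jak1, a kinase bound to the IL-4 receptor alpha chain, had 3982 and 3863 counts, and Il2rg, the common gamma chain, 2270 and 2261. Neither was called, nor were the remaining genes. The receptor chain Il4ra had 558 and 720 counts (log2 ratio 0.34), and the chain Il13ra1 had 327 and 203 (-0.71). The kinases Jak3 and Tyk2 had log2 ratios of -0.41 and -0.36.

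Receptor chains of other STAT-activating cytokines went in both directions. Of 18 chains 17 were tested, and 3 were called higher and 2 lower (4.07% and 6.28% of all genes). The median log2 ratio was -0.04 (also -0.04 over the 15 with more than 3 counts in a library). Il6st, the gp130 chain through which the IL-6 family activates Stat3, rose from 1133 to 3434 counts (log2 ratio 1.57, interval 1.47 to 1.67). The G-CSF receptor Csf3r rose from 1758.13 to 3290.96 counts (log2 ratio 0.88). Il10ra, the ligand-binding chain of the IL-10 receptor that signals through Stat3, fell from 664 to 291 counts (log2 ratio -1.22, interval -1.42 to -1.02). Il10rb, the partner chain, was called higher at a log2 ratio of 0.76, but with the length trend subtracted the ratio was 0.62 and the call was lost. Osmr, the oncostatin M receptor, fell from 53 to 29 counts (log2 ratio -0.89), and it too lost its call with the length trend subtracted (-0.70), which left 2 chains called higher and 1 lower. Csf2rb and Csf2rb2, receptor chains that feed Stat5, had the most counts (7567.10 and 8854.44 for Csf2rb, 7001.66 and 6962.60 for Csf2rb2) and were not called. These chains are near-identical copies, so the division of counts between them is uncertain.

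The 16 inhibitors of STAT signalling had a median log2 ratio of 0.09. Among them 3 were called higher and 0 lower (4.07% and 6.28% of all genes). All 3 belong to the SOCS family, proteins that STATs induce and that block JAKs and receptors. Cish was not listed in NT and had 662 counts in IL-4, at least 216-fold higher against a floor of 3 counts in NT. Socs1 rose from 11 to 355 counts (log2 ratio 4.92, interval 4.13 to 6.00), and Socs2 from 5 to 74, a ratio of 3.73. The phosphatases with the most counts were not called, Ptpn6 with 2775 and 1981 counts and Ptpn1 with 2091 and 2492.

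The window of Cish is shown because it holds paired palindromes of the TTCNNNGAA spacing, in capitals, which begin at the transcript start and 11 bases after it.
Cish, chr9:107296409-107296708, plus strand: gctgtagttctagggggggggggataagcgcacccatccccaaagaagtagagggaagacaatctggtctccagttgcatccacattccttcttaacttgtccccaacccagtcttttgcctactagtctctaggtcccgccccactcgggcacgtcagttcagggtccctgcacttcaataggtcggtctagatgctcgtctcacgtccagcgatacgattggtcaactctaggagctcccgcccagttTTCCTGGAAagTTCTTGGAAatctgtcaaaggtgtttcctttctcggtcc
Both matches, TTCCTGGAA and TTCTTGGAA, lie inside the first 50 transcribed bases.

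The 8 partners and coactivators of the STATs had a median log2 ratio of -0.40. In this list 0 were called higher and 3 lower (4.07% and 6.28% of all genes). Ncoa1, a coactivator that binds Stat6, fell from 502 to 236 counts (log2 ratio -1.12, interval -1.35 to -0.89). Crebbp, the acetyltransferase CBP, and Trim24, the ubiquitin ligase studied with it, were the others called lower, with log2 ratios of -0.87 and -0.79. These genes have long transcripts. With the length trend subtracted 0 of the 8 were called lower (759 of all genes were) and the median was -0.09. The ratios were then -0.67 for Ncoa1, -0.54 for Trim24 and -0.41 for Crebbp, still below 0 but inside the threshold of 0.75. Snd1, a coactivator of Stat6, had 1381 and 2211 counts and a log2 ratio of 0.65 that was not called. Ep300 had 1958 and 1273 counts and was not called.

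Known targets were set beside each STAT, since a target list reports on the factor only indirectly and shares genes with other pathways. All 8 Stat6 targets, the M2 genes that the study itself used as markers, were called higher (4.07% of all genes were). Their median log2 ratio was 4.35 (4.25 with Ccl17, which was not listed in NT, at its bound). Arg1, the arginase of M2 cells, rose from 30 to 7711 counts, and the lectin Chil3 from 121 to 9566.46. Irf4 had a log2 ratio of 4.72 and Ccl24 of 4.34. The study chose this list with these cells in view, so it is not independent evidence of direction. Stat6 itself, with a ratio of -0.31, was lower in the same library.

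The 14 interferon-stimulated targets of Stat2 had a median log2 ratio of -0.17. Here 0 were called higher and 2 lower (4.07% and 6.28% of all genes). Oas2, a sensor of double-stranded RNA, fell from 89 to 52 counts (log2 ratio -0.80), a call that was lost with the length trend subtracted (-0.70). Mx1, an antiviral GTPase with 17.10 and 6.25 counts, was the other called. Oas1a had the most counts, 695.10 in NT and 1040.68 in IL-4, and its log2 ratio of 0.55 was not called. Oasl2 had 511 and 496.01 counts. Irf9, the DNA-binding partner of Stat2, had 389.55 and 424.85 counts (log2 ratio 0.10, interval -0.11 to 0.30).

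Of 10 genes known as Stat3 targets 2 were called higher and 1 lower (4.07% and 6.28% of all genes). The median log2 ratio of the list was 0.30. Nfil3, a bZIP repressor, rose from 136 to 749 counts (log2 ratio 2.43) and Myc from 102 to 313 (1.59). Il1rn, the IL-1 receptor antagonist, fell from 674.77 to 391.62 counts (log2 ratio -0.81). Mcl1, a survival factor, had 6510 and 4248 counts, and Junb 1277 and 1563, and neither was called. Socs3, the classical feedback gene of Stat3, had 112 and 145 counts (log2 ratio 0.34, interval -0.02 to 0.71).

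For Stat5, 2 of 8 targets were called higher (Cish and Socs2, given above) and 1 was called lower. Over all genes these shares were 4.07% and 6.28%. The median log2 ratio of the 8 targets was 0.06. The kinase Pim2 fell from 65 to 35 counts (log2 ratio -0.91). Bcl2l1, a survival gene, had 1134 and 861 counts and Pim1 803 and 1097, and neither was called. Cish and Socs2 are also counted among the inhibitors, and Pim1 among the Stat3 targets.

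**Figure D4:**
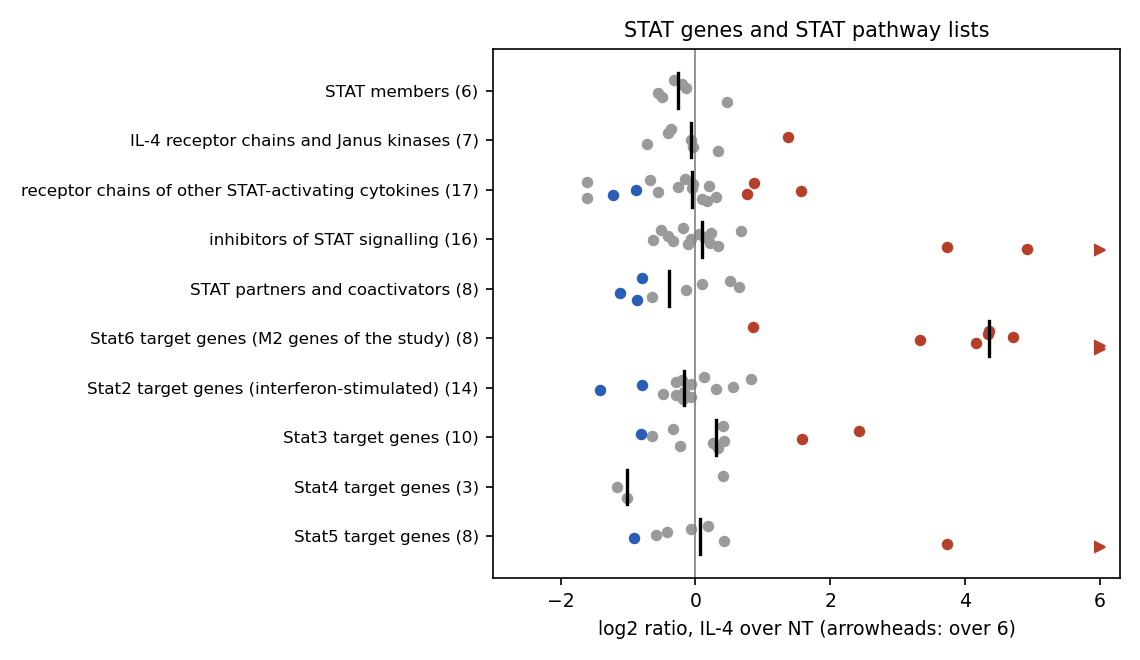
Log2 ratio of IL-4 over NT of each tested gene in the STAT family and in the pathway lists (number tested in brackets). Red points were called higher, blue lower and grey not called, black bars are list medians, and arrowheads are ratios over 6. The STAT genes lie between -0.55 and 0.48 while the 8 M2 genes have a median of 4.35.

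By pattern over the 2 libraries, the genes closest to Stat6 in log2(FPKM + 0.1) were Arhgap9 (69.1 and 55.5 FPKM) and Retreg2 (69.2 and 57.0). Dnajb5 and Slc25a22 were closest to Stat2, Smarca4 and Tmem65 to Stat3, and Smarcd1 and Deaf1 to Stat5a. Gdf15 and Rfc1 were closest to Stat5b, and Gm10785 and Syt3 to Stat4. With only 2 libraries such a likeness amounts to a similar level and a similar ratio.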

How the data were processed

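Total RNA of peritoneal macrophages was sequenced in 2 samples (NT and IL-4), grouped by their titles. Per the methods of the study, the authors used Bowtie for mapping (GRCm38/mm10) and RSEM for quantification (versions not given in the sources used here). The deposited tables give for each gene an expected count, not scaled for depth, an FPKM value calculated by the authors and, per the file headers, a transcript-weighted length. A gene absent from a table was set to 0. RefSeq (GRCm38) gave symbols for 15587 of 15623 genes, and the coordinates.

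Log2 ratios of IL-4 over NT were computed from expected counts scaled to the library totals with 0.5 count added. Counts were then rounded, 30 genes at 0 in both libraries were left out, and 15593 genes were tested by an exact two-sided conditional binomial test (2 times the smaller tail) with Benjamini-Hochberg adjustment over all of them. Intervals are exact Clopper-Pearson. Differences between members are exact conditional odds ratios of rounded counts. The depth gives a floor of 3 counts, 0.272 CPM in NT and 0.267 CPM in IL-4. On simulated libraries of this comparison the test recovered 100% of 200 changed genes and called 24 unchanged genes. The simulated counts varied by counting error only. Changes were placed only in genes with at least 200 counts, at a log2 size above the threshold of 0.75. These settings largely fixed the recovery, which does not bear on smaller differences such as those of the STAT genes.

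The members, gene lists and tests were chosen with earlier results of these data known. Named pathway genes are, per list, the called genes with at least 50 counts in the library with more (at most the 4 with the largest ratio in size) and the 2 with the most counts. In marker lists it is the gene with the most counts, and all macrophage markers. Mx1, Socs3, Irf9, Il10rb, Il4ra, Il13ra1, Jak3 and Tyk2 were named after their values were seen. So were the T cell markers other than Cd28, and the Stat4 targets other than Furin and Il18r1. The 2 genes nearest to each member in log2(FPKM + 0.1) are also named. Coding sequences were taken from GENCODE mouse release M21 through its RefSeq pairing and aligned with Biopython 1.88. Alternatives were library scaling by TMM (edgeR 4.0.16), by median of ratios (DESeq2 1.42.0) or to a sum that leaves out the top 100 genes, and FPKM plus 0.1 or 1. The exact test of edgeR was run at a coefficient of variation set to 0.1, 0.2 or 0.4. Other thresholds, a minimum of 10 counts and a length trend were also tried. The length trend is the median over the 200 genes of most similar length (each with 200 reads or more), subtracted from the ratio. A further member of the family is not reported here. Python 3.11.15, scipy 1.17.1 and R 4.3.3 were used.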

Additional observations from a re-analysis of the deposited data

How the results depend on the processing

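No paired analysis was possible because there was a single library for NT and for IL-4. Over 12 alternatives, and summing Stat5a with Stat5b (chosen after seeing the data), the log2 ratio of each of the 6 STAT genes kept its sign and its side of the threshold. The ranges were 0.44 to 0.57 for Stat2, -0.51 to -0.36 for Stat3, -0.57 to -0.25 for Stat4, -0.18 to -0.05 for Stat5a, -0.21 to -0.03 for Stat5b and -0.33 to -0.23 for Stat6. Several alternatives leave the ratios as they are. The count of STAT genes at p of at most 0.05, followed after seeing the data, was 1 higher and 3 lower, and with an assumed coefficient of variation of 0.1 the lower ones numbered 1. With 0.2 and with 0.4 it was 0 higher and 0 lower.

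Over all genes, 635 were called higher and 979 lower. FPKM with 1 added gave 391 and 399. An assumed coefficient of variation gave 390 and 423 at 0.2, and 65 and 8 at 0.4. Requiring 1 on the log2 scale and BH 0.05 gave 408 and 476. In shares of expected counts, which favour long transcripts, Stat3 held 26.9% in NT and 22.8% in IL-4, Stat4 0.467% and 0.378%, Stat5b 11.3% and 11.8%, and Stat6 47.5% and 45.7%. With the length trend subtracted, 635 of all genes were called higher and 759 lower. The genes called lower then numbered 1 among other receptor chains (Osmr was lost), 0 among partners and 1 among the Stat2 targets (Oas2 was lost). The receptor chains called higher numbered 2 (Il10rb was lost). That count and the other list counts, 51 in all, were within 1.5 times. The cause of these changes was not tested, apart from the construction of the alternatives. Depth limits Stat4 above all, with 49 reads in both libraries.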

Other observations

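The targets' promoter windows were searched for the motifs described for Stat2 and Cish, with no test. TTTCNNTTTC was found for 5 of the 10 Stat2 targets that had a window (Ifit1, Ifit3, Isg15, Oas1a and Rsad2), and for 3.99% of all 27025 genes. TTCNNNGAA was found for 2 of 5 Stat5 targets (Bcl6 and Cish), and for 9.55% of all genes. It was also found for 2 of 5 M2 genes, 3 of 7 Stat4, 2 of 9 Stat3 and 2 of 10 Stat2 targets. Of the 5 M2 genes with a window, Ccl17 and Retnla held TTCNNNNGAA, as did 8.01% of all genes. That spacing was also found for 2 of 10 Stat2, 1 of 9 Stat3, 2 of 7 Stat4 and 1 of 5 Stat5 targets. Neither spacing was thus particular to the list of its own factor.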
